A study of Homo sapiens with 9 samples.

Results

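U87MG cells selected in temozolomide and then released from the drug were compared with the untreated parent and with another selected line that was still kept in the drug. The comparison set the 3 libraries of the released line, R50_OFF, against the 6 libraries of the other lines and asked which transcripts were found at a level that neither other line showed. In 4525 of the 16456 genes tested, all 3 R50_OFF libraries lay beyond all 6 others, 2480 above and 2045 below. A gene is described here as higher or lower in R50_OFF only if, in addition, its change passed a test against both lines at once. This was so for 1587 genes that were higher and 1282 that were lower.

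U87MG is an established human glioblastoma cell line. Temozolomide is an alkylating drug that methylates DNA bases, and glioblastoma cells that survive it may do so through repair of the lesions, tolerance of mismatches or a changed cell state. Cells taken off a drug can return to the state of the parent, keep the resistant state or take up a state of their own, and the comparison concerns the third of these. The parent group (3 libraries) was untreated U87MG. The R50 group (3 libraries) was a resistant U87MG line selected in 50 µM temozolomide and kept in it. The R50_OFF group (3 libraries) was a resistant U87MG line selected in the same way, for which the drug was interrupted after 2 months, and the labels do not state how long the cells then grew without it. The resistant lines are described as clonal, so each stands for 1 line, and a difference between lines may be a difference between clones. Nothing says that the 3 libraries of a group were separate cultures, and p-values then describe only how far these libraries spread, which may be technical variation.

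Between 28.7 M and 35.8 M reads per library could be traced in the deposited values, and 22904 to 24892 genes lay above 0. Values are the normalized signal per kilobase of transcript that the authors deposited, given for replicates 1, 2 and 3 in that order. A log2 change is a difference of mean log2(value + 1), which makes the change of a gene with low values look smaller, and the smaller change of a gene is the smaller of its changes against the other lines. Where a pair of values in brackets stands for changes, the first is the log2 change of R50_OFF against parent and the second that against R50. Replicates differed by more than counting noise in every pair, and R50 replicate 2 stood apart from R50 replicates 1 and 3, with a chi-square per gene of 13.4 and 16.2 beside 4.28 between those replicates. All 6 markers of mesenchymal-type glioblastoma cells reached a value of 10. Their sum was 428427 to 434265 in parent, 275307 to 294669 in R50 and 376147 to 397545 in R50_OFF. The lymphocyte markers in the table summed to at most 4.27 in any library. The 6 fibroblast and pericyte markers summed to 15907 to 16394 in R50_OFF, below 21097 to 25154 in parent and 38573 to 45559 in R50. COL1A1 made up most of that sum, and of these markers only COL1A1 was below all other libraries in R50_OFF. RGS5 lay above the parent there and LUM above R50. The 4 of 5 endothelial markers in the table summed to 153 to 168 in R50_OFF, also below 352 to 386 in parent and 251 to 301 in R50. PECAM1, at 125 to 137 in R50_OFF, made up most of that sum and was below all other libraries. VWF, KDR and CDH5 were not, and KDR lay above R50. All libraries are of U87MG cells, so the markers describe expression within a cell line and not a mixture of tissue cell types. In bulk RNA, fewer cells that express a marker and less RNA per cell cannot be told apart, and the part of these markers in the results was not tested.

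The 1587 higher genes were 9.64% of those tested and the 1282 lower genes 7.79%. Without the test, the share with libraries beyond all others was 15.1% above and 12.4% below. Most of these differences were small. The median of the smaller log2 change was 0.40 among the higher genes, a fold of 1.32, and 0.45 among the lower genes, a fold of 1.36. Without R50 replicate 2, 1665 genes were higher and 1371 lower. A fold of at least 2 against both lines was reached by 286 higher and 188 lower genes, and a fold of at least 4 by 124 and 45. Treated in the same way, the parent was higher than both other lines in 2434 genes (14.8%) and lower in 2265 (13.8%), and R50 was higher in 2899 (17.6%) and lower in 3112 (18.9%). R50_OFF was thus the line with the fewest genes to itself in both directions by this count, and the difference between the counts was not tested.

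The requirement that libraries do not overlap is a sharp edge, and genes next to it show how little can decide it. BNIP1, just inside, had 573, 607 and 496 in parent, 533, 514 and 470.4 in R50 and 679, 607 and 680.3 in R50_OFF. The lowest R50_OFF library exceeded the highest parent library by less than the last digit given here. NUP107, just outside, had 4619, 4553 and 4465 in parent, 4247, 4444 and 4084 in R50 and 3984, 4084 and 3519 in R50_OFF, so that 1 R50_OFF library and 1 R50 library were nearly level.

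At the majority of the genes set apart in R50_OFF, the other lines also differed from each other past the threshold, though less often than over all genes. A difference that did not pass the threshold does not show that the lines were alike. Of the 1587 higher genes, R50 and parent did not differ past the threshold in 710 (44.7%), R50 lay above parent in 349 and below it in 528. Of the 1282 lower genes, the same counts were 627 (48.9%), 343 and 312. Over all tested genes R50 was above parent in 31.6%, below it in 31.7%, and past the threshold in neither direction in 36.7%. These shares use the same libraries as the calls and are given as a description. In the plot of the changes against each line, the genes that were higher fill the upper right corner and those that were lower the lower left.

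**Figure D1:**
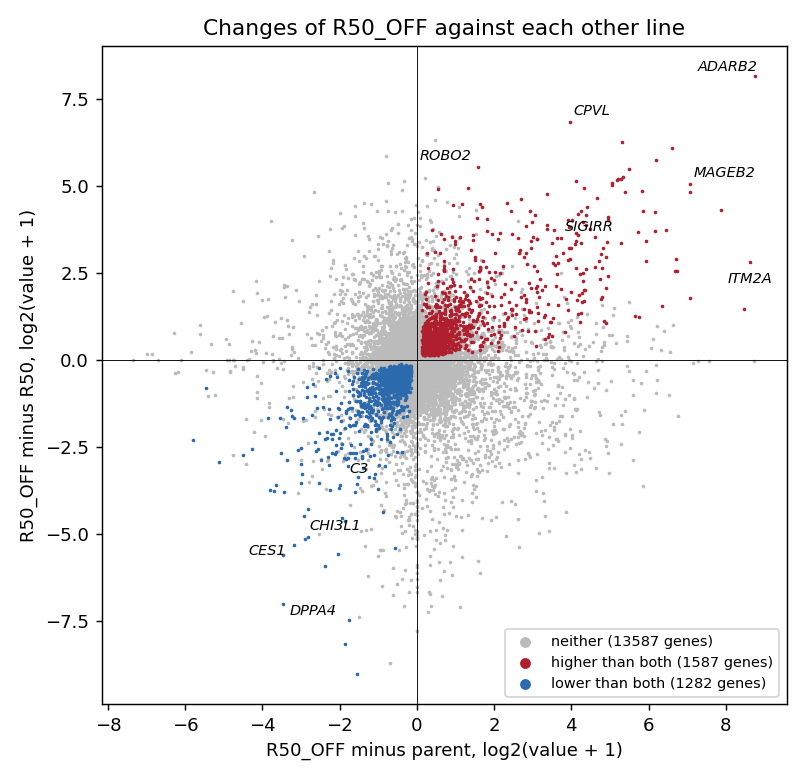
Each point is 1 of the 16456 tested genes, with its log2(value + 1) change from parent to R50_OFF on the horizontal axis and from R50 to R50_OFF on the vertical axis. The 1587 genes higher than both lines (red) and the 1282 lower than both (blue) crowd near the centre, with ADARB2 at the far upper right and DPPA4 and CHI3L1 at the lower left, while the points far up either axis alone are grey.

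A few genes were at or near 0 in both other lines and clearly above it in R50_OFF. In 11 genes every R50_OFF library reached a value of 10 while every other library stayed under 1, and 7 of them were listed at 0 in all 6 others. No gene met the opposite rule, with every R50_OFF library under 1 and every other at 10 or more. Of the 11, 6 were protein coding and 5 were long noncoding RNAs. GABRA5, a subunit of the receptor for the inhibitory transmitter GABA, had 0 in every parent library, 0 in every R50 library and 41.5, 51.8 and 40.1 in R50_OFF. These values came from 24 to 39 traced reads per R50_OFF library, so the level rests on few reads but was seen in all 3 libraries. The gene was picked by these same values, so no p-value is given. POU3F3, a POU-domain transcription factor of the developing brain, had 0.242, 0 and 0 in parent, 0, 0 and 0.442 in R50 and 42.6, 39.9 and 39.5 in R50_OFF, from 161 to 205 traced reads. PANTR1, a noncoding RNA transcribed from the opposite strand next to POU3F3 on chromosome 2, had 0 in every parent library, 0 in every R50 library and 44.9, 26.1 and 38.5 in R50_OFF. Both neighbours were thus expressed in R50_OFF and near or at 0 in all other libraries. The counting may not have kept strands apart, so reads of overlapping or adjoining transcripts on opposite strands could be shared. ZNF140, a zinc finger protein, had 0 in every parent library, 0 in every R50 library and 35.6, 31.1 and 41.8 in R50_OFF. The noncoding RNA LINC02713 had 0 in every parent library, 0 in every R50 library and 27.2, 35.1 and 34.2 in R50_OFF. The others, chosen for mention after their values were seen, were LINC01842, LINC02645, the proton-sensing receptor GPR65, CPXCR1, the postsynaptic scaffold gene DLGAP1 and an unnamed noncoding RNA on chromosome 18. Since their values elsewhere were at or near 0, no fold change is given for them.

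The largest rises were ranked among genes whose R50_OFF mean reached the median level of tested genes, 357. A gene can meet this through R50_OFF alone, and in 10 of the 20 largest rises the mean over all 9 libraries was under that level. The largest of the 20 was that of ADARB2, a brain-enriched relative of the RNA-editing enzymes that is itself not known to edit. ADARB2 had 0 in every parent library, 2.42, 0 and 0 in R50 and 428, 419 and 458 in R50_OFF. It was at or near 0 in all 6 other libraries and well above it in R50_OFF, and because the parent is listed at 0 no fold change is given. ADARB2 passed the filter of tested genes through R50_OFF alone, so no p-value is given either. The cancer-testis genes MAGEB2 and MAGEA3 were also among the 20 largest rises. These genes, many of them on the X chromosome, are normally silent outside the germ line, and DNA methylation at their promoters is a known means of that silencing. MAGEB2 had 13.4, 10.5 and 10.5 in parent, 46.8, 35.1 and 68.9 in R50 and 1645, 1639 and 1731 in R50_OFF. The R50_OFF libraries lay far above the R50 libraries, which in turn lay above the parent (log2 change 7.07 ± 0.20 (SE) against parent and 5.08 ± 0.20 against R50, adjusted p = 4.66e-07). MAGEA3 had 179, 157 and 162 in parent, 274, 261 and 273 in R50 and 890.4, 848 and 856 in R50_OFF, with the same order of the lines (log2 change 2.38 ± 0.07 (SE) against parent and 1.68 ± 0.07 against R50, adjusted p = 4.66e-07). GAGE1 had 3.54, 3.61 and 3.1 in parent, 11.7, 6.71 and 5.38 in R50 and 256, 249 and 244 in R50_OFF, a change of 5.83 and 4.87 on the log2 scale against parent and R50. Like ADARB2, GAGE1 passed the filter of tested genes through R50_OFF alone, so no p-value is given.

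The promoters of ADARB2 and of the cancer-testis genes MAGEB2 and MAGEA3 are shown because DNA methylation acts on the dinucleotide CG, which is in capitals. Each is 250 bases before to 50 bases after the start in RefSeq on GRCh38.p14, 5′ to 3′ on the gene's strand: ADARB2 at chr10:1737476-1737775, minus strand, MAGEB2 at chrX:30215313-30215612, plus strand, and MAGEA3 at chrX:152698544-152698843, plus strand.
ADARB2: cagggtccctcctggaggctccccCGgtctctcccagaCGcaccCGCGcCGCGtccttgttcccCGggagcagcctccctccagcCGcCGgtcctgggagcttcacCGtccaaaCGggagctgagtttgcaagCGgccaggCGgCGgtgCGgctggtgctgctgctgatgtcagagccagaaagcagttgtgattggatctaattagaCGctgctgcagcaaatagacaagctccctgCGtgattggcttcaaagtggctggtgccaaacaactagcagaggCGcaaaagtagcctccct
MAGEB2: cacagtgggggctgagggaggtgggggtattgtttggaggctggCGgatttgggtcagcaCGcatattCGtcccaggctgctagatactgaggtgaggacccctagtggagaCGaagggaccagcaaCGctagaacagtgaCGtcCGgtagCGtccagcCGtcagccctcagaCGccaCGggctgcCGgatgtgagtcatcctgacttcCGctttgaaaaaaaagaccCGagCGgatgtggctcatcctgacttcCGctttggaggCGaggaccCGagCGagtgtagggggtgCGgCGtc
MAGEA3: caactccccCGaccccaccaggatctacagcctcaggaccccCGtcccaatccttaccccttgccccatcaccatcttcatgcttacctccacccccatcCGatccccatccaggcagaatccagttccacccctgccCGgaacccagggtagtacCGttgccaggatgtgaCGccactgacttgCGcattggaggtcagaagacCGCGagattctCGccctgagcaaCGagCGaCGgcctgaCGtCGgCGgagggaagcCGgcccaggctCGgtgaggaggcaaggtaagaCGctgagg
The ADARB2 window holds 18 CG, that of MAGEB2 21 and that of MAGEA3 19, against a median of 14 in 35116 promoters. The median was 16 in the 6 promoters of the higher cancer-testis genes and 13 in the 27 promoters of the tested ones, so the windows shown lie above the median of the list. Methylation was not measured here, and the count of CG is a description of the sequence.

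Not all genes of the family followed. Of 65 cancer-testis genes on the list, 46 were in the table and 27 were tested, of which 5 were higher in R50_OFF (18.5%) and 2 were lower (7.41%), beside 9.64% and 7.79% of all genes. Over the 27, the median change was 0.89 against parent and -0.02 against R50, where all genes had medians of 0.0042 and -0.0047. CSAG3 was higher by 3.36 and 3.79 and CT45A1 by 3.84 and 0.82, both named after their values were seen. In contrast DPPA4, a chromatin protein of pluripotent and germ cells, had 15.9, 17.9 and 10.7 in parent, 159.8, 195 and 192 in R50 and 0, 1.83 and 0 in R50_OFF. It was listed at 0 in 2 R50_OFF libraries and near 0 in the other (adjusted p = 0.000174 for R50_OFF against both lines). The R50 libraries of DPPA4 lay above those of the parent. SSX1, a germ-line nuclear protein, was also lower (-2.82 and -4.27, adjusted p = 4.23e-05). Members of the MAGE, CSAG, GAGE, CT45 and SSX families have near-identical copies, between which reads may be split, so the value of a single member is uncertain. Zinc finger and ribosomal protein genes also have close copies or pseudogenes, with the same limit. Of 29 tested genes of DNA methylation and silencing, 5 were higher (17.2%) and 3 lower (10.3%). DNMT3A, which places new methyl groups on DNA, had 74.1, 93.9 and 101 in parent, 100.5, 68.2 and 97.9 in R50 and 248, 211 and 270.2 in R50_OFF. The R50_OFF libraries stood well above all others, and parent and R50 overlapped (log2 change 1.43 ± 0.17 (SE) against parent and 1.45 ± 0.17 against R50, adjusted p = 0.000227). SETDB1, a histone methyltransferase of gene silencing, was lower (-0.46 and -0.48, adjusted p = 0.000415).

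Among the largest rises at the cell surface was SIGIRR, a receptor that dampens interleukin-1 and Toll-like receptor signalling. SIGIRR had 34.8, 33 and 44.2 in parent, 37.6, 38 and 55.5 in R50 and 515, 502 and 504 in R50_OFF. Parent and R50 overlapped, and R50_OFF stood far above both (log2 change 3.74 ± 0.17 (SE) against parent and 3.53 ± 0.17 against R50, adjusted p = 7.25e-07). ITGA6, a subunit of laminin-binding integrins that is used as a marker of glioblastoma stem-like cells, had 57.6, 62 and 59.4 in parent, 152, 187 and 161 in R50 and 679.6, 775 and 742 in R50_OFF (log2 change 3.59 ± 0.10 (SE) against parent and 2.13 ± 0.10 against R50, adjusted p = 6.81e-07). The lines formed separate steps, with parent lowest. CHRNA9, a nicotinic acetylcholine receptor subunit, had 297, 343 and 399 in parent, 209, 278 and 283 in R50 and 1155, 1295 and 1194 in R50_OFF (1.82 and 2.25, adjusted p = 8.04e-06). ADRA1B, the alpha-1B adrenergic receptor, had 362, 390.0 and 319.7 in parent, 179.6, 161 and 219 in R50 and 923, 919 and 993 in R50_OFF (1.41 and 2.35, adjusted p = 1.62e-05). ITM2A, a membrane protein, had 0, 1.34 and 0 in parent, 79.4, 75 and 67.1 in R50 and 506, 521 and 561 in R50_OFF. It was nearly absent from the parent, present in R50 and highest in R50_OFF, with a smaller change of 2.83 (adjusted p = 8.67e-05).

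The 20 largest rises also held genes that are known from neurons, although the list of synaptic and neuronal genes had members in both directions. Of its 40 tested genes, 6 were higher (15%) and 5 lower (12.5%), beside 9.64% and 7.79% of all genes. The neuron markers in the table summed to 943 to 975 in R50_OFF, below 1239 to 1330.2 in parent and above 428 to 503 in R50. EEF1A2, the translation elongation factor form of neurons and muscle, had 139, 170.2 and 168 in parent, 393, 325 and 342 in R50 and 2108, 1889 and 1914 in R50_OFF (log2 change 3.63 ± 0.10 (SE) against parent and 2.48 ± 0.10 against R50, adjusted p = 4.66e-07). The R50 libraries lay between the parent and R50_OFF. ROBO2, a receptor that steers axons in response to SLIT proteins, had 164, 199 and 188 in parent, 10.4, 9.17 and 12.5 in R50 and 538, 565 and 537 in R50_OFF. It was lowest in R50, and R50_OFF stood above the parent (log2 change 1.57 ± 0.13 (SE) against parent and 5.56 ± 0.13 against R50, adjusted p = 1.66e-05). RTN1, a reticulon of the neuronal endoplasmic reticulum, had 513, 568 and 515 in parent, 86.1, 88.8 and 98.3 in R50 and 1590.3, 1522 and 1579.6 in R50_OFF, the same pattern (1.56 and 4.09, adjusted p = 6.81e-07). CNIH2, an auxiliary subunit of AMPA-type glutamate receptors, had 236, 234 and 219 in parent, 122, 105 and 128 in R50 and 681, 641 and 788 in R50_OFF (1.61 and 2.56, adjusted p = 3.61e-06). FARP1, a signalling protein of neurons and their synapses, had 109.9, 107 and 90.0 in parent, 272, 335 and 302 in R50 and 800.2, 795 and 792 in R50_OFF (2.95 and 1.40, adjusted p = 7.44e-06). ARNT2, a transcription factor that partners other bHLH-PAS proteins, had 362, 305 and 334 in parent, 194, 172 and 239 in R50 and 995, 959.7 and 1081 in R50_OFF (1.60 and 2.33, adjusted p = 7.96e-06). In ROBO2, RTN1, CNIH2 and ARNT2 the R50 libraries were the lowest, whereas in EEF1A2 and FARP1 the parent libraries were.

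The remaining leading rises had other roles. CHCHD10, a protein of the mitochondrial intermembrane space, had 685, 619.8 and 686 in parent, 759, 626 and 745 in R50 and 2665, 2069 and 2966 in R50_OFF (log2 change 1.94 ± 0.12 (SE) against parent and 1.84 ± 0.12 against R50, adjusted p = 5.03e-06). Parent and R50 overlapped, and the lowest R50_OFF library was far above the highest of them. DAB2IP, a Ras GTPase-activating protein, had 121, 117 and 105 in parent, 63.3, 79.5 and 70.9 in R50 and 432, 414 and 411 in R50_OFF (1.87 and 2.55, adjusted p = 2.06e-06). CARMIL2, a regulator of actin capping, had 154, 153 and 179 in parent, 26, 43.3 and 31.9 in R50 and 569, 516 and 626 in R50_OFF (1.81 and 4.07, adjusted p = 3.55e-05). In both genes R50 was lowest and R50_OFF highest. CPVL, a serine carboxypeptidase, had 22.3, 25.5 and 27.1 in parent, 2.97, 0 and 9.4 in R50 and 368, 461 and 381 in R50_OFF (adjusted p = 0.00133). Its call was lost at a pseudocount of 0.1, with an adjusted p of 0.0591. TRIML2 (3.39 and 1.61) and the antisense RNA MUC12-AS1 (2.25 and 1.91) completed the 20 largest rises, the value of MUC12-AS1 being uncertain for the reason of strand.

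The largest falls were ranked among genes for which the lower of the parent and R50 means reached the same level. Secreted and matrix proteins were among the 20. CHI3L1 (YKL-40), a secreted glycoprotein known as a marker of the mesenchymal glioblastoma state, had 5018, 5014 and 5149 in parent, 14422, 14586 and 15444 in R50 and 672, 697 and 626 in R50_OFF. R50 was highest, the parent lay between, and R50_OFF was lowest (log2 change -2.93 ± 0.05 (SE) against parent and -4.48 ± 0.05 against R50, adjusted p = 2.38e-10). C3, the central complement protein, had 2979.7, 1870.2 and 2408 in parent, 4487, 4743 and 5156 in R50 and 661, 678 and 655 in R50_OFF, also highest in R50 and lowest in R50_OFF (log2 change -1.84 ± 0.13 (SE) against parent and -2.85 ± 0.13 against R50, adjusted p = 7.96e-06). FAP, a membrane serine protease of activated fibroblasts and mesenchymal tumour cells, had 602, 704 and 630.3 in parent, 725, 899.6 and 656 in R50 and 150.3, 148 and 181 in R50_OFF (log2 change -2.01 ± 0.12 (SE) against parent and -2.24 ± 0.12 against R50, adjusted p = 2.72e-06). HSPG2, which encodes the basement membrane proteoglycan perlecan, had 745, 755 and 681 in parent, 827, 667 and 824 in R50 and 209, 233 and 198 in R50_OFF (log2 change -1.77 ± 0.10 (SE) against parent and -1.85 ± 0.10 against R50, adjusted p = 1.94e-06). In FAP and HSPG2 the parent and R50 libraries overlapped, and only R50_OFF stood apart. COL4A5, a basement membrane collagen, had 675, 695 and 655 in parent, 565, 616 and 738 in R50 and 274, 249.8 and 259.8 in R50_OFF (-1.37 and -1.28, adjusted p = 8.04e-06). LOXL1, which crosslinks elastin, had 2909.6, 3492 and 3325 in parent, 4511, 4244 and 5143 in R50 and 1399, 1325 and 1531 in R50_OFF (-1.19 and -1.70, adjusted p = 8.92e-06). CTSK, the collagen-degrading cathepsin K, had 1879, 1897 and 2009.8 in parent, 2867, 2766 and 2649 in R50 and 764, 706 and 787 in R50_OFF (-1.36 and -1.87, adjusted p = 4.66e-07). The plasma proteins SERPINA1 (alpha-1-antitrypsin, -1.48 and -1.15) and PROS1 (protein S, -1.35 and -1.36) were also lower, as was the intracellular serpin SERPINB7 (-1.45 and -1.25).

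The other genes among the 20 had various roles. ARHGAP29, a GTPase-activating protein, had 412, 402 and 381 in parent, 348, 471 and 333 in R50 and 88.3, 89.4 and 84.6 in R50_OFF (log2 change -2.17 ± 0.12 (SE) against parent and -2.11 ± 0.12 against R50, adjusted p = 2.06e-06). EGLN3, a prolyl hydroxylase that marks hypoxia-inducible factors for breakdown, had 1718, 2361 and 2269 in parent, 701, 654 and 661 in R50 and 255, 215 and 195 in R50_OFF (log2 change -3.24 ± 0.12 (SE) against parent and -1.60 ± 0.12 against R50, adjusted p = 1.35e-05). For EGLN3 the lines formed separate steps with R50 between, whereas for ARHGAP29 parent and R50 overlapped. CRABP2, which carries retinoic acid to its nuclear receptors, had 1305, 1443 and 1479.6 in parent, 1758, 1524 and 1603 in R50 and 461, 452 and 504 in R50_OFF (-1.57 and -1.78, adjusted p = 6.81e-07). TBX3, a T-box transcription repressor, had 870.1, 858 and 841 in parent, 824, 919 and 892 in R50 and 301, 291 and 309.8 in R50_OFF (-1.51 and -1.54, adjusted p = 4.66e-07). MALAT1, an abundant nuclear noncoding RNA, had 1351, 1260.0 and 1113 in parent, 2665, 3114 and 3016 in R50 and 456, 545 and 486 in R50_OFF (-1.32 and -2.56, adjusted p = 6.27e-06). R50_OFF was the lowest line for MALAT1, and R50 the highest. The scaffold PPFIBP2 (-2.08 and -2.42), the integrin subunit ITGA7 (-1.73 and -1.88), the membrane glycoprotein GPNMB (-1.34 and -1.83), RALGPS2 (-1.18 and -1.47) and the mTOR complex component PRR5L (-1.10 and -1.24) made up the rest. Deeper falls were seen in genes outside this ranking, where the lower of the parent and R50 means was under the level. They included ADAMTS2, a procollagen peptidase, with 50.4, 54.7 and 53.6 in parent, 233, 233 and 238 in R50 and 8.11, 1.69 and 3.72 in R50_OFF (adjusted p = 6.31e-05). CCND2, the cyclin D2 gene, had 15.6, 23.9 and 14.4 in parent, 25.3, 17.1 and 26.7 in R50 and 0, 0 and 3.95 in R50_OFF (adjusted p = 0.00195). CES1, a carboxylesterase, had 127, 111 and 171 in parent, 591, 583 and 590.0 in R50 and 15.7, 11.8 and 14.8 in R50_OFF (adjusted p = 1.37e-06). In the plot of single libraries the groups of these genes can be compared directly.

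**Figure D2:**
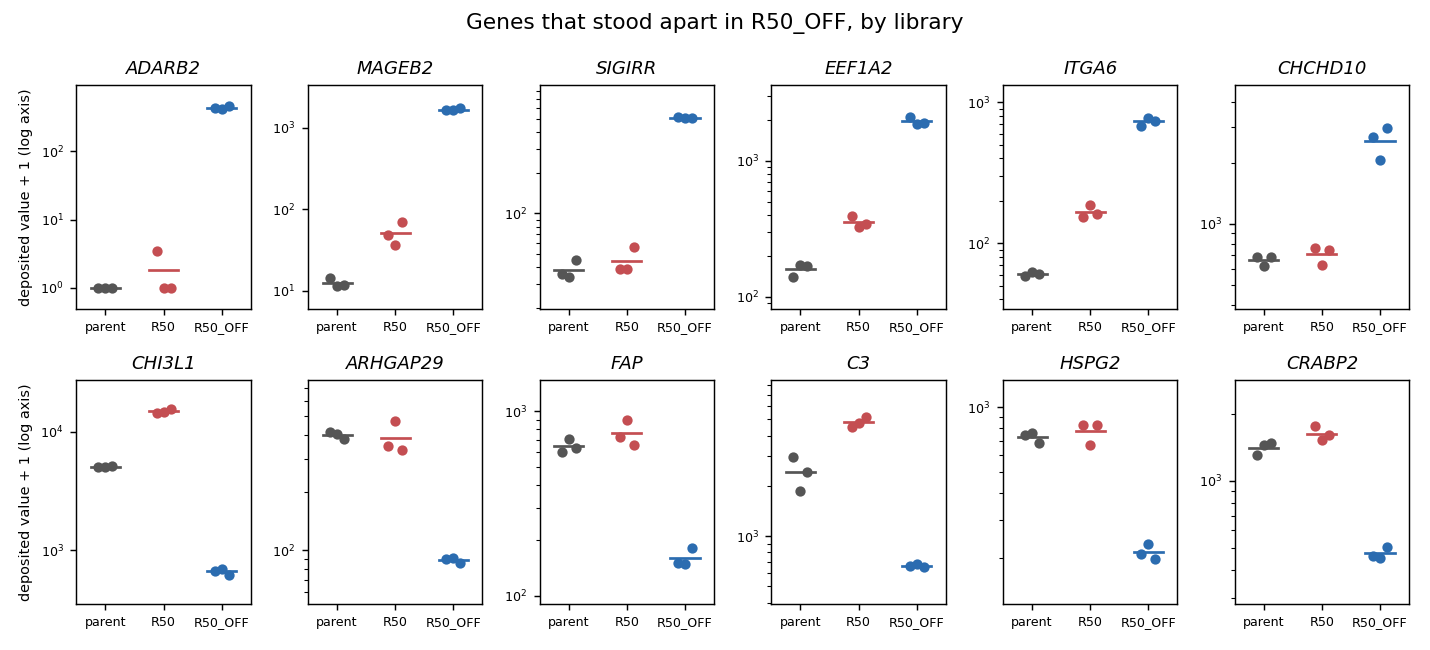
The deposited value + 1 of 12 genes is plotted on a log axis for each library, with points for single libraries and a line for the mean of each group of 3. In the upper row (ADARB2, MAGEB2, SIGIRR, EEF1A2, ITGA6 and CHCHD10) the R50_OFF points lie above all 6 others, and in the lower row (CHI3L1, ARHGAP29, FAP, C3, HSPG2 and CRABP2) below them.

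Across 36 gene lists, the share of tested members that was higher in R50_OFF ran from 0 to 43.4%, and the share that was lower from 0 to 35.7%. Nuclear genes of oxidative phosphorylation stood at one end, with 33 of 76 higher and none lower. Genes of HLA class I and antigen presentation stood at the other, with 10 of 28 lower, beside 7.79% of all genes, and none higher. The other lists with no lower member and a higher share above the 9.64% of all genes were HOX genes (5 of 18), DNA replication genes (11 of 46) and cytosolic ribosomal proteins (16 of 75).

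**Figure D3:**
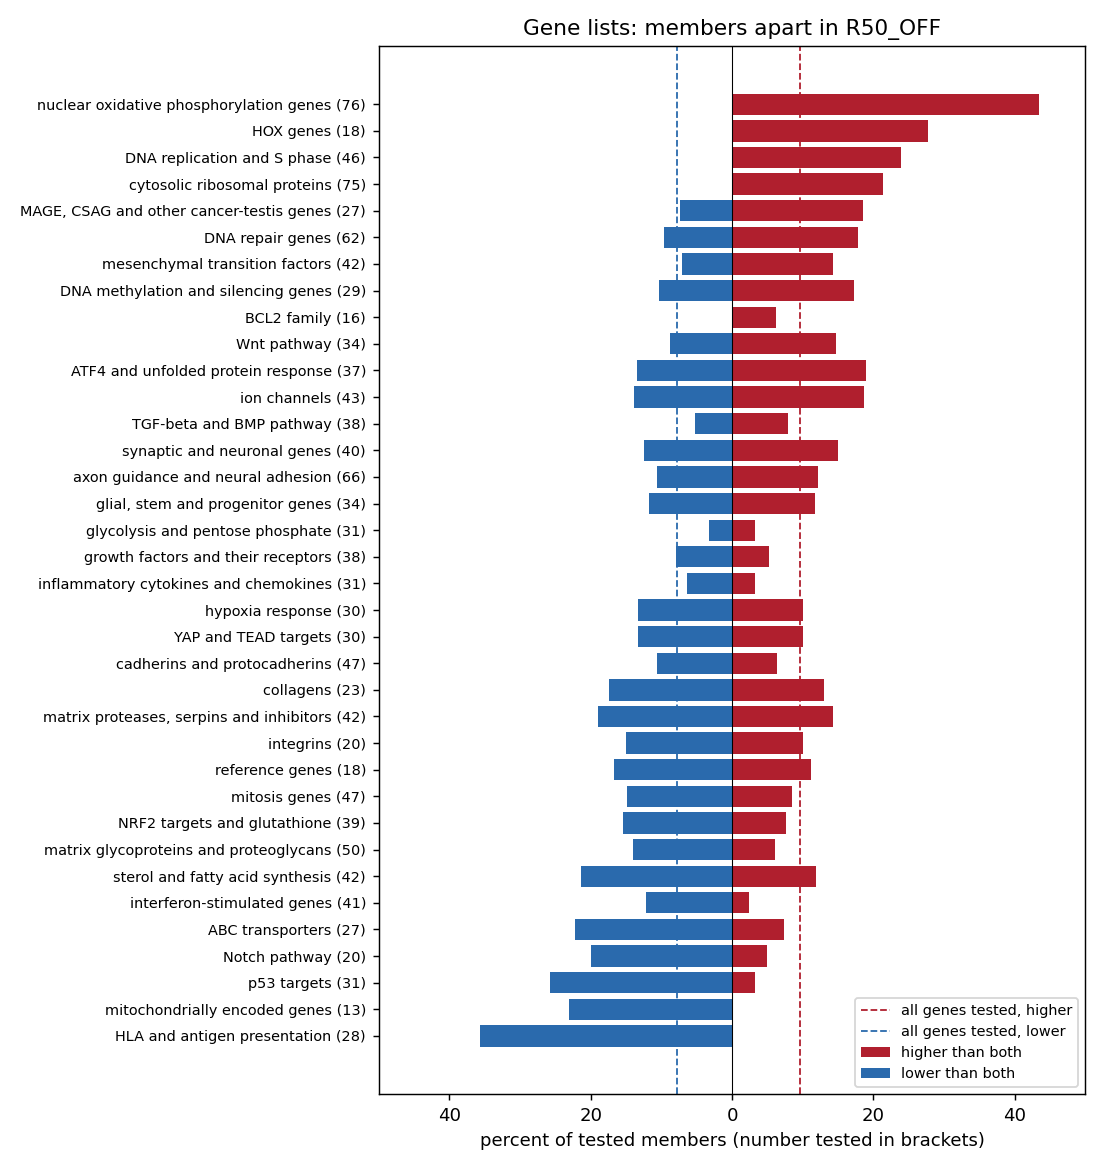
For each of 36 gene lists the bars give the percent of its tested members higher than both lines (red, right) and lower than both (blue, left), with the number tested in brackets and dashed lines for all 16456 genes (9.64% and 7.79%). Oxidative phosphorylation extends farthest right and HLA and antigen presentation farthest left, while many lists have members on both sides.

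Oxidative phosphorylation couples electron transport through complexes I to IV to the making of ATP by complex V. The higher members came from every complex, 15 of 38 in complex I, 2 of 4 in II, 3 of 9 in III, 4 of 10 in IV and 9 of 15 in V. CYC1, the cytochrome c1 subunit of complex III, had 5664, 5509.5 and 5436 in parent, 5334, 4953 and 5427 in R50 and 8637, 7727 and 8523 in R50_OFF (log2 change 0.58 ± 0.05 (SE) against parent and 0.66 ± 0.05 against R50, adjusted p = 4.02e-05). ATP5ME, a subunit of ATP synthase, had 9188, 9382 and 11044 in parent, 10099, 7719.8 and 9558 in R50 and 15180.5, 15404 and 16268 in R50_OFF (log2 change 0.67 ± 0.10 (SE) against parent and 0.78 ± 0.10 against R50, adjusted p = 0.000799), and NDUFA3, of complex I, had 3636, 3722 and 3791 in parent, 3946, 3318 and 3808 in R50 and 5667, 5056 and 5618 in R50_OFF (0.55 and 0.56, adjusted p = 0.000263). In ATP5ME and NDUFA3 the parent and R50 libraries overlapped, and in CYC1 they nearly did, with R50_OFF above them. The median change over all 76 genes was 0.31 against parent and 0.21 against R50, and 71 of the 76 lay above the parent and 63 above R50 in mean log2 value. The changes were thus small and widespread. With quantile normalization 21 of the 76 were higher in place of 33. NDUFA4L2, a relative of a complex IV subunit that is known to respond to hypoxia, is on the hypoxia list and had 10.9, 16.2 and 5.72 in parent, 61.1, 62.8 and 82.4 in R50 and 204, 267 and 206 in R50_OFF (adjusted p = 0.0022).

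Of the 13 protein-coding genes of the mitochondrial genome, MT-ATP6, MT-ND5 and MT-CYB were lower in R50_OFF and none was higher. The lower share was 23.1%, beside 7.79% of all genes. MT-ND5, a complex I subunit, had 15996, 17226 and 19025 in parent, 15657, 14129 and 15093 in R50 and 11564, 11449 and 10907 in R50_OFF (log2 change -0.62 ± 0.06 (SE) against parent and -0.40 ± 0.06 against R50, adjusted p = 0.00137). MT-ATP6, an ATP synthase subunit, had 47896, 54419 and 56261 in parent, 60935, 52829 and 53696 in R50 and 41528, 40875 and 36402 in R50_OFF (-0.42 and -0.49, adjusted p = 0.00384). The median change of the 13 was -0.40 against parent and -0.33 against R50, and 1 of the 13 lay above each line in mean log2 value. Leaving out R50 replicate 2, R50_OFF replicate 1 or parent replicate 1 raised the count of lower members from 3 to 5. The nuclear and the mitochondrial genes of the same complexes therefore had medians of opposite sign against both lines.

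Cytosolic ribosomal proteins resembled the nuclear respiratory genes in direction, with 16 of 75 higher and none lower. RPL34 had 10795, 10592 and 10950.5 in parent, 11044, 9464 and 10092 in R50 and 16052, 13241 and 13999.7 in R50_OFF (0.42 and 0.50, adjusted p = 0.00255), and RPL31 had 17502, 17085 and 18445 in parent, 16285, 13962 and 15034 in R50 and 23290.0, 20471 and 22778 in R50_OFF (0.33 and 0.56, adjusted p = 0.00582). The median change of the list was 0.27 against parent and 0.10 against R50. The count fell to 8 without R50_OFF replicate 3, to 9 without R50_OFF replicate 1 and to 6 with quantile normalization, so it depended on these libraries and on the scaling. Genes of the highest expression level were higher in R50_OFF more often than others. Among the 3291 genes of highest mean level, 18.1% were higher and 8.05% lower, and the part of expression level in the respiratory and ribosomal counts was not tested.

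**Figure D4:**
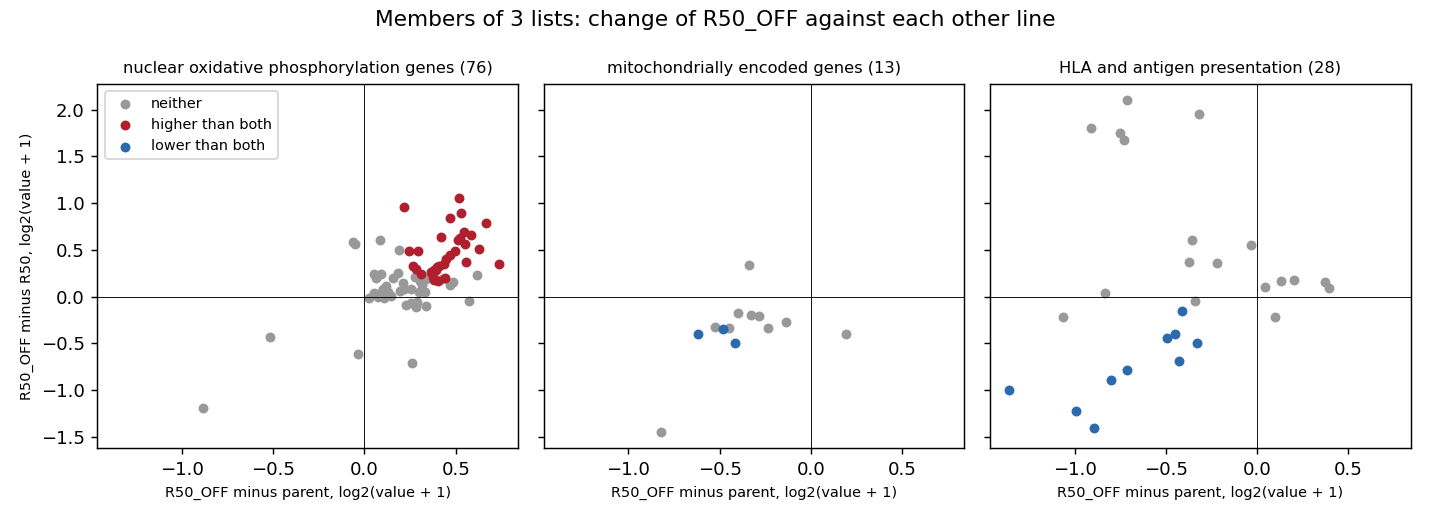
Each point is a tested gene, with its log2(value + 1) change from parent to R50_OFF on the horizontal axis and from R50 to R50_OFF on the vertical axis, in 3 lists. The 76 nuclear oxidative phosphorylation genes lie mainly up and to the right (33 higher than both, red), the 13 mitochondrially encoded genes mainly down and to the left (3 lower, blue), and the HLA and antigen presentation genes split between a lower-left group (10 lower) and a grey group above.

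HLA class I molecules present peptides from inside the cell to cytotoxic T cells, on a light chain encoded by B2M, after TAP transports and tapasin (TAPBP) loads the peptides. HLA-B, HLA-C, HLA-E, HLA-F, HLA-G, B2M, TAP1, TAPBP and PDIA3 were among the 10 genes of the list that were lower in R50_OFF. HLA-B had 12654, 12941 and 13193 in parent, 19372, 17177 and 19020.2 in R50 and 6964, 6933 and 7000.4 in R50_OFF (log2 change -0.89 ± 0.05 (SE) against parent and -1.41 ± 0.05 against R50, adjusted p = 1.94e-06). B2M had 47320.0, 47431 and 49119 in parent, 45986, 47030.5 and 46038 in R50 and 34107, 35107 and 33146 in R50_OFF (log2 change -0.49 ± 0.04 (SE) against parent and -0.44 ± 0.04 against R50, adjusted p = 4.06e-05). For B2M the parent and R50 libraries lay close together, with R50_OFF lower, while for HLA-B R50 was highest. HLA-F had 375, 374 and 361 in parent, 319, 252 and 298 in R50 and 141, 147 and 142 in R50_OFF (adjusted p = 3.55e-05), and TAPBP changed by -0.43 and -0.69 (adjusted p = 0.00154). The other 18 of the 28 genes, with the class II gene HLA-DRA among them, did not pass in either direction. Over the whole list the median was -0.42 against parent and 0.06 against R50. HLA genes have near-identical alleles and copies, so their single values are uncertain. Chromosome 6, which carries the HLA genes, TAP1 and TAPBP, had a median change of -0.04 against parent and -0.31 against R50 over its 838 tested genes, of which 12.6% were lower. B2M and PDIA3 lie on chromosome 15, where the medians were -0.09 and -0.09 and 12.2% of 523 tested genes were lower.

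Promoters of 3 of these genes are shown because class I genes are known targets of interferon regulatory factors, which recognise the interferon-stimulated response element. Its core, searched as GAAA, any 2 bases and GAAA on both strands, is in capitals. HLA-F is at chr6:29723184-29723483, plus strand, TAPBP at chr6:33314029-33314328, minus strand, and B2M at chr15:44711267-44711566, plus strand, in the same windows of RefSeq on GRCh38.p14.
HLA-F: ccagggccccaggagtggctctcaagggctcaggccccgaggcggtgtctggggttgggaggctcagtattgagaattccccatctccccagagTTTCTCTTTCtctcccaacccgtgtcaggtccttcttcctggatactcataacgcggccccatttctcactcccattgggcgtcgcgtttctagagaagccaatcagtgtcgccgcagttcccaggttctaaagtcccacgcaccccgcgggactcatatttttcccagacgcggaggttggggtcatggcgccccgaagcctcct
TAPBP: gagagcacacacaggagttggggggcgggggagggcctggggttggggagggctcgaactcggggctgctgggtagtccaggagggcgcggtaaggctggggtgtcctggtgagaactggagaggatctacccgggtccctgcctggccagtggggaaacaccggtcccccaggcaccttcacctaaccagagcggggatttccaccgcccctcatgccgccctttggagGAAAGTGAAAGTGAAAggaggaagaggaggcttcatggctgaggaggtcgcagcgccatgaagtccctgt
B2M: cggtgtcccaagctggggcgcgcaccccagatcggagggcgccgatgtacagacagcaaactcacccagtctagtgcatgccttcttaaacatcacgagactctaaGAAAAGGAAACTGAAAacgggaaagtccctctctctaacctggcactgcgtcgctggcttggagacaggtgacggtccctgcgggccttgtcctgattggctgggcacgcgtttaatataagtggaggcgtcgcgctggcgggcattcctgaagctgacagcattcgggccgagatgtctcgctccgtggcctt
The HLA-F window holds 1 match, and those of TAPBP and B2M hold 2 overlapping matches each. Of 35116 promoters of this length, 1255 (3.57%) hold a match. Of the lower genes of the list, 7 have a promoter in the table and 4 of them hold a match, beside 11 of 22 among all tested genes of the list.

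Interferon-stimulated genes had members in both directions. Of 41 tested, 5 were lower (12.2%) and 1 was higher (2.44%), beside 7.79% and 9.64% of all genes. STAT2, the transcription factor of the type I interferon response, had 444, 416 and 443 in parent, 469.6, 455 and 595 in R50 and 258, 255 and 187 in R50_OFF (log2 change -0.91 ± 0.13 (SE) against parent and -1.12 ± 0.13 against R50, adjusted p = 0.000822). TRIM22, an antiviral ubiquitin ligase, had 1282, 1247 and 1238 in parent, 1554, 1620.1 and 1578 in R50 and 884, 873 and 924 in R50_OFF (-0.49 and -0.82, adjusted p = 4.61e-05), and PARP14, PARP9 and the RNA sensor RIGI were also lower. IFI44L, another interferon-induced gene, had 877, 898 and 831 in parent, 368, 479 and 451 in R50 and 1224, 1227 and 1253 in R50_OFF, and was higher (0.51 and 1.52, adjusted p = 0.00205). The median of the list was -0.14 against parent and -0.12 against R50. Of the cytokines and chemokines, CSF1, the growth factor of macrophages, was lower with 6338, 5977 and 5605 in parent, 4427, 4245 and 5326 in R50 and 2603, 2507 and 2640.2 in R50_OFF (adjusted p = 4.34e-05), and CXCL14 was higher with 15.9, 15.4 and 16.7 in parent, 10.6, 8.73 and 4.82 in R50 and 50.4, 59.9 and 46.3 in R50_OFF (adjusted p = 0.00188). CXCL12 was at 0 in every R50_OFF library, at 38.0 to 67.7 in parent and at 2.53 to 8.01 in R50, and its call was lost at a pseudocount of 8 and with quantile normalization, with adjusted p of 0.0564 to 0.128.

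Genes of DNA replication were higher in R50_OFF in 11 of 46 cases (23.9%) and lower in none. FEN1, the flap endonuclease of lagging-strand synthesis, had 8609, 8302 and 8962 in parent, 8153, 7649.5 and 7637 in R50 and 12592, 12078 and 12276 in R50_OFF (log2 change 0.51 ± 0.05 (SE) against parent and 0.66 ± 0.05 against R50, adjusted p = 2.94e-05). GINS3, of the replicative helicase, had 1569, 1485 and 1449 in parent, 1250.2, 1259.6 and 1238 in R50 and 2446, 2333 and 2467 in R50_OFF (log2 change 0.69 ± 0.05 (SE) against parent and 0.95 ± 0.05 against R50, adjusted p = 6.27e-06). Parent and R50 libraries lay apart for GINS3, with R50 lower, and R50_OFF was above both. MCM2, MCM5, MCM7, CDT1, CDC45, POLE2, PRIM1, E2F1 and UHRF1 were the others. The list was split by line, since its median change was 0.03 against parent and 0.60 against R50, and R50 itself lay 0.60 below the parent. Of 47 tested genes of mitosis, 4 were higher (8.51%) and 7 lower (14.9%), beside 9.64% and 7.79% of all genes, and the difference from the replication genes was not tested. Among them ASPM, a spindle pole protein, had 688, 702 and 600.4 in parent, 321, 321 and 264 in R50 and 212, 228 and 202 in R50_OFF (-1.63 and -0.49, adjusted p = 0.00475), and FOXM1, a transcription factor of the G2 phase, was higher by 0.62 and 0.35 (adjusted p = 0.0006).

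Targets of p53 were lower in 8 of 31 cases (25.8%) and higher in 1 (3.23%), beside 7.79% and 9.64% of all genes. CDKN1A, the gene of the cyclin-dependent kinase inhibitor p21, had 4504, 4596 and 4598 in parent, 9383, 8472 and 9411 in R50 and 3728, 3563 and 3542 in R50_OFF (log2 change -0.34 ± 0.05 (SE) against parent and -1.33 ± 0.05 against R50, adjusted p = 0.00073). FAS, a death receptor, had 1047, 1036 and 985 in parent, 607, 754 and 572 in R50 and 357, 403 and 396 in R50_OFF (log2 change -1.41 ± 0.10 (SE) against parent and -0.73 ± 0.10 against R50, adjusted p = 0.000389). R50 was highest for CDKN1A and the parent highest for FAS, with R50_OFF lowest in both. SESN2, a stress-induced inhibitor of mTOR signalling, had 391, 398 and 377 in parent, 384, 354 and 408 in R50 and 278, 276 and 282 in R50_OFF (adjusted p = 0.00105), and GADD45A, PLK2, TP53INP1, POLH and ZMAT3 were the other lower genes. The count of lower targets was 5 without R50_OFF replicate 1 or parent replicate 3, and 4 without R50_OFF replicate 3, parent replicate 1 or parent replicate 2. AEN, a p53-induced exonuclease, was higher (0.27 and 0.35). The median of the list was -0.0030 against parent and -0.52 against R50.

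Repair genes are of interest because base excision repair, mismatch repair and translesion synthesis are among the pathways that act on or respond to temozolomide lesions. Of 62 tested, 11 were higher (17.7%) and 6 lower (9.68%), beside 9.64% and 7.79% of all genes. The lower share was thus near that of all genes. The lower genes included 4 translesion polymerase genes, REV3L, POLI, POLK and POLH. REV3L, the catalytic subunit of polymerase zeta, had 1465, 1494 and 1486 in parent, 1151, 1274 and 1136 in R50 and 665, 641 and 575 in R50_OFF (log2 change -1.24 ± 0.07 (SE) against parent and -0.92 ± 0.07 against R50, adjusted p = 8.04e-06). POLK had 298, 308 and 286 in parent, 260.5, 366 and 302 in R50 and 166, 203 and 181 in R50_OFF (-0.70 and -0.75, adjusted p = 0.0022), and POLI had 940.4, 930.3 and 865 in parent, 994, 1163 and 1007 in R50 and 594, 672 and 556 in R50_OFF (-0.59 and -0.80, adjusted p = 0.000661). For POLK the parent and R50 libraries overlapped, for POLI the R50 libraries lay above the parent libraries, and for REV3L R50 lay between the parent and R50_OFF. Of base excision repair, PARP1 (0.42 and 0.34), the glycosylase MPG (0.23 and 0.34), NTHL1, NEIL2, UNG and XRCC1 were higher and OGG1 was lower. These rises were small, and the count of higher repair genes was 5 with a correction for GC content, 6 without R50_OFF replicate 1 or parent replicate 3, 5 without R50_OFF replicate 3 and 7 without parent replicate 2. The kinase ATM was lower (-1.27 and -0.50, adjusted p = 0.00207).

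Matrix genes changed in both directions. Of 50 glycoproteins and proteoglycans, 7 were lower (14%) and 3 higher (6%), beside 7.79% and 9.64% of all genes. FN1, fibronectin, had 40631, 45247 and 45132 in parent, 12893, 11856 and 12891 in R50 and 5984, 6385 and 5854 in R50_OFF (log2 change -2.84 ± 0.06 (SE) against parent and -1.05 ± 0.06 against R50, adjusted p = 1.94e-06). LAMB2, a laminin chain, had 4431, 4541 and 4449 in parent, 7602, 6803 and 9072 in R50 and 2178, 2167 and 2032 in R50_OFF (-1.07 and -1.87, adjusted p = 1.57e-05). FBN2, a fibrillin of elastic microfibrils, had 104, 120.2 and 116 in parent, 274, 219 and 274 in R50 and 603, 659 and 615 in R50_OFF and was higher (2.45 and 1.29, adjusted p = 1.55e-05). Of 23 collagens, 4 were lower (17.4%) and 3 higher (13.0%). COL5A2 (-2.64 and -1.03) and COL1A1 (-0.62 and -1.42), of fibrillar collagens, were lower. COL13A1, a transmembrane collagen, was higher with 758, 901 and 829 in parent, 657, 624 and 667 in R50 and 1714, 1921 and 2171 in R50_OFF (adjusted p = 8.37e-06). Of 20 integrins, 3 were lower (15%) and 2 higher (10%). ITGA7 had 1859, 2228 and 2166 in parent, 2359, 2114 and 2477 in R50 and 602, 623 and 656 in R50_OFF and was lowest in R50_OFF, where ITGA6 was highest, though both are subunits of laminin-binding integrins. ITGB8, which activates latent TGF-beta, was higher (1.16 and 1.70, adjusted p = 0.00252).

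Proteases and their inhibitors were divided as well, with 8 of 42 lower (19.0%) and 6 higher (14.3%), beside 7.79% and 9.64% of all genes. TIMP2 was lower (-1.06 and -1.84, adjusted p = 2.06e-06) and TIMP1 higher (0.53 and 0.65, adjusted p = 0.000354), both being inhibitors of matrix metalloproteinases. PLAU, the urokinase plasminogen activator, was higher (adjusted p = 1.46e-05). ADAMTS3, a procollagen peptidase like ADAMTS2, had 9.4, 13.4 and 11.1 in parent, 21.3, 26.4 and 22.2 in R50 and 101, 102 and 113 in R50_OFF (3.12 and 2.14, adjusted p = 2.85e-05), so the related genes ADAMTS2 and ADAMTS3 differed in direction. GREM1, a secreted antagonist of BMP signalling, had 5019.7, 5327 and 4884 in parent, 9459.6, 11001 and 9366 in R50 and 2439, 2466 and 2466 in R50_OFF (log2 change -1.05 ± 0.06 (SE) against parent and -2.01 ± 0.06 against R50, adjusted p = 2.54e-06). NES, the intermediate filament nestin of neural progenitors, was lower with 60.6, 64.6 and 70.4 in parent, 62.3, 61.9 and 66.7 in R50 and 18.8, 21.5 and 21.8 in R50_OFF (-1.61 and -1.57, adjusted p = 3.55e-05). TNC and CHI3L1 of the mesenchymal marker set were lower, and TIMP1 was higher.

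Of 66 axon guidance genes 8 were higher (12.1%) and 7 lower (10.6%), shares near the 9.64% and 7.79% of all genes. The secreted guidance cue gene SEMA3A was higher (0.93 and 2.64), and SEMA3F, of the same family, was lower, with 3.44, 12 and 6.03 in parent, 24.8, 33.1 and 48.1 in R50 and 0 in every R50_OFF library. EPHB2, an ephrin receptor (1.31 and 0.97), and its ligand gene EFNB2 (1.23 and 0.90) were both higher, while EPHA2 was lower (-1.41 and -0.70). SLIT2, a ligand of ROBO2, had 1.16, 0 and 0.608 in parent, 17, 20.7 and 19 in R50 and 40.7, 43.7 and 42.7 in R50_OFF, but its call (adjusted p = 0.0391) was lost in 10 settings, among them leaving out any 1 library of R50_OFF or of R50, with adjusted p of 0.0639 to 0.502. Of 43 ion channel genes, 8 were higher (18.6%) and 6 lower (13.95%). The potassium channel gene KCNN2 had 5.65, 3.59 and 5.4 in parent, 1.77, 3.59 and 0.937 in R50 and 42.6, 50.4 and 43.1 in R50_OFF. KCNN2 passed the filter of tested genes through R50_OFF alone, so no p-value is given for it. KCNE4 had 8.18, 11.6 and 10.2 in parent, 13.3, 15.7 and 14.5 in R50 and 1.48, 0 and 0 in R50_OFF (adjusted p = 0.000918). The count of higher channel genes was 5 without R50_OFF replicate 1, 2 or 3.

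Of 34 tested glial, stem and progenitor genes, 4 were higher and 4 lower (11.8% each), and of 42 mesenchymal transition factors, 6 were higher (14.3%) and 3 lower (7.14%). Over all genes 9.64% were higher and 7.79% lower, shares near those of the glial, stem and progenitor genes. OLIG2, a factor of the oligodendrocyte lineage and of glioma stem-like cells, had 24.3, 17.1 and 19.6 in parent, 16.1, 18.2 and 15.8 in R50 and 82, 61.7 and 82.4 in R50_OFF (log2 change 1.84 ± 0.20 (SE) against parent and 2.10 ± 0.20 against R50, adjusted p = 0.000118). The 4 markers of that lineage in the table, with OLIG2 among them, summed to 123 to 132 in R50_OFF, 142 to 162 in parent and 38.5 to 47.3 in R50. PDGFRA, a growth factor receptor of its progenitors, had 105, 119.5 and 117 in parent, 11.6, 9.8 and 1.02 in R50 and 29.2, 40.5 and 36.3 in R50_OFF, so that R50_OFF lay between the other lines. DLX2, a homeobox factor of the forebrain, had 81.3, 89.9 and 78.2 in parent, 75.8, 77.2 and 74.1 in R50 and 252, 253 and 273 in R50_OFF (log2 change 1.63 ± 0.10 (SE) against parent and 1.76 ± 0.10 against R50, adjusted p = 2.52e-06). ZIC2 was higher by 2.26 and 1.02 (adjusted p = 8.04e-06). For OLIG2 the parent and R50 libraries overlapped, for DLX2 they lay close together, and R50_OFF stood apart in both. Of 18 tested HOX genes 5 were higher and none lower, HOXA3, HOXB3, HOXB7, HOXC10 and HOXD9. HOXB7 had 2.03, 1.78 and 2.14 in parent, 7.03, 3.56 and 5.56 in R50 and 17.7, 27.8 and 16.5 in R50_OFF (2.82 and 1.76). These are low values, and HOXB7 passed the filter of tested genes through R50_OFF alone, so no p-value is given. The count of higher HOX genes was 3, 2 or 1 without R50_OFF replicate 1, 2 or 3. MYC (-0.55 and -0.27) and KLF4 (-0.30 and -0.78), of the stem and progenitor list, were lower, as was TBX3 of the transition factors.

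In metabolism, the ATF4 target SLC7A5, the large neutral amino acid transporter, had 798, 812 and 767 in parent, 740.1, 729 and 747 in R50 and 1914, 1756 and 1914 in R50_OFF (log2 change 1.23 ± 0.05 (SE) against parent and 1.33 ± 0.05 against R50, adjusted p = 4.81e-07). Its partner SLC3A2 was also higher (0.63 and 0.37, adjusted p = 0.00215), as were the serine synthesis genes PHGDH and PSPH, while the stress factor DDIT3 (-0.48 and -0.49) and the protein degradation factor HERPUD1 (-0.55 and -0.68) were lower. In all, 7 of 37 genes of the ATF4 and unfolded protein response were higher (18.9%) and 5 lower (13.5%), and 4 were higher without R50_OFF replicate 1. Sterol and fatty acid genes were lower in 9 of 42 cases (21.4%) and higher in 5. FADS3, of the fatty acid desaturase cluster, had 1323, 1330.0 and 1174 in parent, 1693, 1536 and 1707 in R50 and 801, 729.8 and 753 in R50_OFF (adjusted p = 3.55e-05), and its neighbours FADS1 and FADS2 were lower too. INSIG1, which restrains sterol synthesis, was lower (-1.15 and -0.51, adjusted p = 9.05e-05) and SCD5, a desaturase, was higher (1.26 and 0.60, adjusted p = 0.000519). Of 39 tested NRF2 targets and glutathione genes, 6 were lower (15.4%) and 3 higher (7.69%), beside 7.79% and 9.64% of all genes. AKR1C1, AKR1C2 and AKR1C3, which are close copies of each other, and HMOX1 (-2.07 and -0.47) were lower. SLC7A11 was higher (0.59 and 1.01), but its call was lost in 9 settings. Of 31 genes of glycolysis and the pentose phosphate pathway, 1 was lower and 1 higher (3.23% each), below the shares of all genes.

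Genes in common use as references were not all stable across the lines. ACTB, beta-actin, had 168709, 171454 and 165835 in parent, 168095, 151204 and 157029 in R50 and 232062, 207872 and 221249 in R50_OFF (log2 change 0.38 ± 0.06 (SE) against parent and 0.47 ± 0.06 against R50, adjusted p = 0.000951). B2M, GUSB (-1.07 and -0.38) and HPRT1 (-0.28 and -0.37) were lower. Of 18 such genes 2 were higher (11.1%) and 3 lower (16.7%), beside 9.64% and 7.79% of all genes, and 13 did not pass in either direction. The median of the 18 was -0.08 against parent and 0.04 against R50.

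The genes set apart in R50_OFF were not spread evenly over the genome. On chromosome 22, 19.8% of 374 tested genes were higher and 2.94% lower, and on chromosome 7, 15.8% of 798 were higher and 3.51% lower. On chromosome 6, 2.74% of 838 were higher and 12.6% lower. R50 itself differed from the parent by chromosome. The median change from parent to R50 was 0.32 on chromosome 6, -0.20 on chromosome 7, -0.34 on chromosome 2, -0.27 on chromosome 4 and -0.34 on chromosome 21, and R50_OFF differed from R50 there in the reverse direction. It was 0.30 on chromosome 14, 0.21 on chromosome 13 and 0.20 on chromosome 19, where R50_OFF lay by -0.07, -0.12 and -0.06 from R50 and by 0.19, 0.04 and 0.16 from the parent. On chromosome 22 the median of R50_OFF was 0.20 above parent and 0.07 above R50. DNA copy number was not measured, and its part in these shares was not tested.

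The genome was divided into windows of 10 megabases, 297 of which held 10 or more tested genes. The one with the highest share of higher genes lay on chromosome 7 from 50 to 60 megabases, on hg38, with 7 of 17. It holds VOPP1, PSPH and LANCL2. VOPP1 had 1503, 1515 and 1376 in parent, 1022, 979 and 963 in R50 and 2316, 1844 and 2033 in R50_OFF (0.49 and 1.06, adjusted p = 0.00132), and LANCL2 had 1439.9, 1489.8 and 1516 in parent, 1490.3, 1524 and 1518 in R50 and 1981, 1937 and 2133 in R50_OFF (0.44 and 0.42, adjusted p = 0.000195). For lower genes the highest shares were in adjoining windows of chromosome 3, with 7 of 21 from 90 to 100 megabases and 10 of 34 from 100 to 110. PROS1, there, had 687, 704 and 662 in parent, 635, 766 and 662 in R50 and 235, 269.5 and 301 in R50_OFF, ALCAM, a cell adhesion molecule, had 4079, 4551 and 4402 in parent, 3278, 4096 and 3356 in R50 and 2093, 2324 and 2119 in R50_OFF (adjusted p = 0.000189), and CBLB, a ubiquitin ligase, had 198, 180.3 and 184 in parent, 297, 308 and 329.9 in R50 and 122, 116 and 122 in R50_OFF (adjusted p = 0.000296). DPPA4 lies in the second of these windows. The windows were picked for their shares, which are therefore a description.

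Base composition moved with the calls. Among the 3283 genes of lowest GC content (23.5% to 42.2%), 3.90% were higher and 11.5% lower, and among the 3282 of highest GC content (57.8% to 86.4%), 15.5% were higher and 5.73% lower. After a correction for GC content in each library, added after the data were seen, the shares were 6.24% and 10.9% in the lowest group and 12.6% and 9.35% in the highest. With the correction 1454 genes were higher, of which 1247 were among the 1587, and 1544 were lower, of which 1174 were among the 1282. The median GC content was 48.9% for the nuclear oxidative phosphorylation genes and 48.9% for all genes, 49.8% for the ribosomal proteins, 44.3% for the mitochondrially encoded genes and 54.6% for the HLA and antigen presentation list. With the correction 39 of the 76 oxidative phosphorylation genes were higher. It left 10 HLA and antigen presentation genes and 10 p53 targets lower, and 20 ribosomal protein, 9 replication and 5 repair genes higher, with 1 ribosomal protein gene lower. Of the 163 named genes, 159 kept their call with the correction and 4 lost it.

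**Figure D5:**
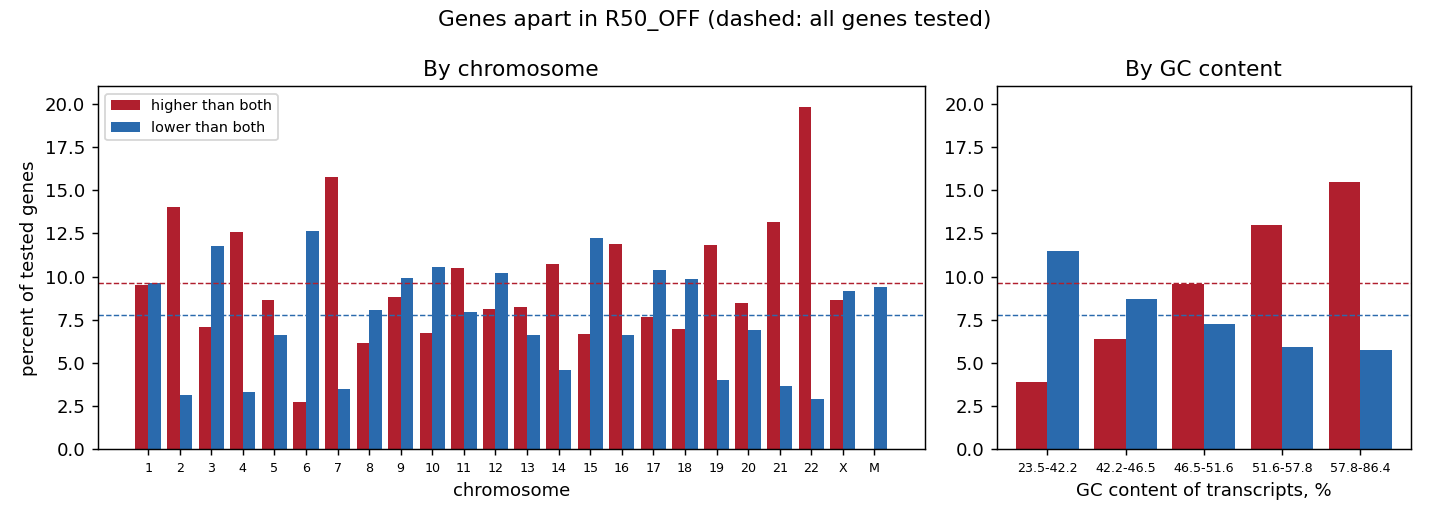
The bars give the percent of tested genes higher (red) and lower (blue) than both lines on each chromosome (left) and in 5 groups of genes by GC content of their transcripts (right), with dashed lines for all tested genes (9.64% and 7.79%). Chromosomes 22, 7 and 2 have the tallest red bars, chromosome 6 has the tallest blue bar beside the shortest red bar of the numbered chromosomes, and red rises while blue falls from left to right along GC content.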

How the data were processed

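Poly-A RNA of 9 libraries was read as single ends of 50 bases, per the labels' protocols. The authors deposited a signal for 33264 genes, normalized across libraries and scaled by each gene's median transcript length in kilobases, per the file headers. Per the submitters' processing notes, bcl2fastq 2.17.1.14 and hg38 were used. For the aligner, the counting tool and its strand setting, the sources used here give nothing. Of the gene IDs, 33137 (99.6%) matched GENCODE 44. Values were whole multiples of a step of 1 read in 100% of genes (tolerance 0.001 read), which gave the traced reads.

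limma 3.58.1 in R 4.3.3 with an empirical Bayes trend was fitted to log2(value + 1) of the 16456 genes that reached 10 in 3 or more libraries, with all 9 libraries in 1 fit (6 residual degrees of freedom). A gene can pass this filter through its R50_OFF libraries alone, as GAGE1, KCNN2 and HOXB7 did, and its p-value is then no separate support. A gene passed if R50_OFF differed in the same direction from parent and from R50, with the larger two-sided p adjusted over all genes by Benjamini-Hochberg to under 0.05, and if its 3 libraries lay beyond all 6 others. The fit was tested on simulated data. Named genes were the 20 largest smaller changes in each direction that reached the median level of tested genes (357) in the R50_OFF mean for rises, and in the lower of the parent and R50 means for falls, up to 3 per list, the highest genes on or off only in R50_OFF and the leaders of windows. Members named beyond these were chosen after their values were seen. The members and lists were chosen with earlier results of these data known. Promoters are from RefSeq on GRCh38.p14. Alternatives were other pseudocounts, filters and scalings, a replicate block, another contrast, leaving out each library and a GC correction.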

Additional observations from a re-analysis of the deposited data

How the results depend on the processing

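No gene called in R50_OFF was called in the opposite direction under any of the 18 other settings. Only quantile normalization, rescaling by trimmed means and the GC correction could have reversed a call. The other settings leave the order of the libraries unchanged, so the call rule fixed their outcome. With 1 contrast against the mean of both other lines, 2433 genes were higher and 2005 lower, in place of 1587 and 1282. With 1 library left out in turn, the counts ran from 1080 to 1665 higher and from 928 to 1371 lower in R50_OFF, from 1935 to 2746 and from 1963 to 2432 for the parent, and from 2270 to 2686 and from 2846 to 3209 for R50. The lowest counts in R50_OFF were those without R50_OFF replicate 3. Quantile normalization gave 1468 higher and 1252 lower, and rescaling by trimmed means of the traced reads 1696 and 1157. The replicate block gave 1628 higher and 1342 lower. Deviations from the group means had correlations of -0.021 to 0.10 between same-numbered libraries of different lines. Between differently numbered ones they were -0.082 to 0.044. The largest was between R50 replicate 2 and R50_OFF replicate 2. All were weak, and they do not show whether same-numbered samples share more than a number. Of 163 named genes, 141 kept their call under every setting that tested them and 22 lost it under at least 1, among them ADAMTS9, CPVL, CXCL12, FZD7, HOXC10, KITLG, NOTCH4, PLK2, SLC7A11, SLIT2, SMAD9, SYN1 and TEK. Count models on the traced reads were not run. Depth limits the genes on only in R50_OFF, which rest on few reads.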

Other observations

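Signalling and adhesion genes outside the groups above also included members set apart in R50_OFF, with no common direction. In the Wnt pathway, 5 of 34 tested genes were higher (14.7%) and 3 lower (8.82%). The ligand gene WNT5B had 74.9, 93.9 and 77.4 in parent, 102, 86.2 and 79.7 in R50 and 196, 168 and 146 in R50_OFF (1.04 and 0.92 on the log2 scale against parent and R50, adjusted p = 0.0014). The receptor gene FZD8 had 640.2, 662 and 633 in parent, 542, 502 and 547 in R50 and 981, 958 and 1059.9 in R50_OFF (0.63 and 0.91, adjusted p = 5.11e-05). In both, the R50_OFF libraries lay above all others. Without R50_OFF replicate 1, 1 Wnt gene was lower. In the Notch pathway, 1 of 20 tested genes was higher (5%) and 4 lower (20%), beside 9.64% and 7.79% of all genes. The target HES1 was higher, with 20.8, 21.8 and 25.3 in parent, 129.9, 173 and 140.2 in R50 and 255, 251 and 248 in R50_OFF (adjusted p = 0.00197). The glycosyltransferase gene LFNG was among the lower ones, with 82.9, 94.4 and 76.9 in parent, 185, 178 and 209.9 in R50 and 53.7, 53 and 49.6 in R50_OFF (adjusted p = 0.00218). The count of lower Notch genes was 1 without R50_OFF replicate 1 or 3, and 2 without R50 replicate 3 or parent replicate 1.

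Of the TEAD transcription factors that bind YAP, TEAD4 was higher with 1614, 1434 and 1465 in parent, 1535, 1446 and 1499.6 in R50 and 2339, 2379 and 2366 in R50_OFF (adjusted p = 1.74e-05). TEAD2 was lower with 53.3, 59.7 and 42.8 in parent, 19.7, 23.6 and 18 in R50 and 4.63, 8.67 and 4.85 in R50_OFF (adjusted p = 0.00167), and TEAD1 was also lower (-0.43 and -0.35). The receptor tyrosine kinase gene TYRO3 was higher with 2398, 2156 and 2211 in parent, 2287, 2274 and 2527 in R50 and 4551, 4113 and 4297 in R50_OFF (adjusted p = 7.48e-06), while PROS1, which encodes one of its ligands, was lower. The cadherin gene CDH7 was higher with 13.9, 20.0 and 20.2 in parent, 17.7, 11 and 9.35 in R50 and 113, 132 and 115 in R50_OFF (adjusted p = 4.06e-05), and CDH3 was lower with 35.5, 63.8 and 60.9 in parent, 84, 111 and 104 in R50 and 7.22, 15 and 20.8 in R50_OFF (adjusted p = 0.00286). Of 27 ABC transporter genes, 6 were lower (22.2%) and 2 higher (7.41%). ABCB6, a mitochondrial porphyrin transporter, had 125, 72.2 and 74.1 in parent, 87.7, 72.3 and 101 in R50 and 35.3, 32.7 and 35.6 in R50_OFF (adjusted p = 0.00154), and ABCC4, an exporter of organic anions, was higher (0.64 and 0.33, adjusted p = 0.0114). Of 16 genes of the BCL2 family, 1 was higher (6.25%) and none lower, beside 9.64% and 7.79% of all genes. It was the death agonist BID (0.41 and 0.24, adjusted p = 0.0107), whose call was lost without R50_OFF replicate 3 (adjusted p = 0.0526).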
